A study of Mus musculus with 15 samples.

Results

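Interferon response genes are genes whose transcription rises when a cell senses interferon, and 39 of them are described here: transcription factors, nucleic acid sensors, antiviral effectors, regulators, interferon-inducible GTPases and antigen processing genes. Each gene was read from the array feature annotated to exactly 1 of these genes, the brightest where there were several. Features naming exactly 1 gene gave values for 38 of the 39, among 19752 genes tested. Igtp appeared only in a feature that names several genes and was not analysed here. Irf1 was the only member with more than 1 feature.

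Type I interferon binds the receptor chains IFNAR1 and IFNAR2, whose kinases JAK1 and TYK2 phosphorylate STAT2. With IRF9 it forms part of a complex that binds a short element in the promoters of its target genes, while interferon gamma acts through the receptor chains IFNGR1 and IFNGR2. In T cells many of these targets are transcribed at a basal level without infection, and in regulatory T cells (Treg, the Foxp3-expressing CD4 cells that restrain other immune cells) interferon is known to affect number and function.

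The cells were Treg from the spleens of 6-week-old male mice, sorted as CD3, TCRbeta, CD4 and GFP positive, with cells carrying CD8, B220, CD11b, CD11c, Gr1 or taking up DAPI excluded. All groups carried Foxp3EGFPCre, a Cre fused to the green marker and driven from Foxp3, so that recombination is directed to Foxp3-expressing cells. Control mice carried this allele alone (4 arrays, numbered 2, 3, 4 and 5). N1c mice also carried R26N1c/N1c, an activated Notch1 intracellular domain in the Rosa26 locus (arrays 1, 2, 4 and 5). RBPJdel mice were RBPJ∆/∆, from a floxed gene for the DNA-binding partner of Notch (arrays 1 to 4), and N1c_RBPJdel mice carried both alterations (arrays 1 to 3). Each array was made from 40000 to 50000 sorted cells, a pool of mice, so n counts pools and p-values measure the spread between them. Nothing in the labels says how separate the pools of a group were. The sorter was a FACSAria for N1c_RBPJdel and a MoFlo for all other groups, so sorter and that genotype cannot be told apart.

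Rbpj, the deleted gene, was at 259.6, 294, 293 and 225 in RBPJdel and at 175, 258 and 201 in N1c_RBPJdel, against 571, 472, 470.3 and 483 in control. The fall was 0.90 on the log2 scale in RBPJdel (limma adjusted p = 0.00213). Foxp3 did not pass the test in any comparison, and the Notch1 feature did not pass in N1c (log2 change 0.03). Intensities of the 15 arrays correlated at 0.957 to 0.996, and array medians ran from 107.1 to 117.2. N1c_RBPJdel 1 and 3 had the narrowest spread of log2 intensity over genes (interquartile range 2.49 and 2.47, against 2.57 to 2.97 on the other 13). Among markers of cells the gate should remove, B cell markers summed to 631 to 949 in N1c_RBPJdel and 562 to 637 in control, neutrophil markers to 425 to 478 and 272 to 410, and erythroid markers to 421 to 1230 and 267 to 295. In RBPJdel the B cell markers summed to 643 to 771, neutrophil markers to 297 to 373 and erythroid markers to 285 to 338. Of these lists 2 of 6, 2 of 7 and 2 of 4 measured markers rose in N1c_RBPJdel against control, where 3.77% of all genes rose, and none passed in RBPJdel. Of 5 NK cell markers 1 rose in N1c_RBPJdel against control. None of 7 conventional dendritic cell, 6 macrophage and monocyte or 2 CD8 T cell markers passed there. Plasmacytoid dendritic cell markers (6 measured), from a cell type known for interferon secretion, summed to 1010 to 1337 in N1c_RBPJdel and 1131 to 1356 in control, and none passed the test. The part of these cells and of the intensity range in the results on N1c_RBPJdel was not tested, except where a value without the arrays is given. In bulk samples fewer cells of a type and less RNA per cell cannot be told apart.

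The element bound by the complex of STAT2 and IRF9 was looked for as the letters GAAA, any 2 bases and GAAA again (TTTC, 2 bases and TTTC where it lies on the other strand), from 250 bases before to 50 after each RefSeq start (GRCm38.p6). Windows were on hand for 30 of the 39 genes, and 14 of these genes (46.7%) held the letters, against 3.99% of 27025 genes with windows. The letters TTCNNNGAA, bound by STAT pairs, were in 8 of the 30 and in 9.55% of all genes, and GTGGGAA, bound by RBPJ, in 1 of the 30 (Eif2ak2) and in 7.25% of all genes. Counted by window, the shares over all genes were 3.44%, 8.3% and 6.38% of 32851. A match describes letters and is not a measured site. The stretches below stand upstream of Stat2, the member that fell in N1c_RBPJdel against both control and RBPJdel, of Ifit1 and Ifit3, neighbours with 2 matches each, and of Irgm1, the member with the lowest p in RBPJdel, with matches to the element in capitals. They lie at chr10:128270248-128270497 (plus strand), chr19:34640739-34640888 (plus), chr19:34583359-34583528 (plus) and chr11:48871421-48871570 (minus), and each ends 1 base before the start. In Irgm1 the 2 matches overlap.
Stat2: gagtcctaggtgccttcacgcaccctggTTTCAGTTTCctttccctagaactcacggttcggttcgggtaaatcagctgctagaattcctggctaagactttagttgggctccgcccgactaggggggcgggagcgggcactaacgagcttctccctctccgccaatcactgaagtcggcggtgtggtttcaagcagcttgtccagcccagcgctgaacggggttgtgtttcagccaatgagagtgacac
Ifit1: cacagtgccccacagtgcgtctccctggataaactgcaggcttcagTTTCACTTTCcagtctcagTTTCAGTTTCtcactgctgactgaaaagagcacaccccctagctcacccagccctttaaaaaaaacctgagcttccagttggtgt
Ifit3: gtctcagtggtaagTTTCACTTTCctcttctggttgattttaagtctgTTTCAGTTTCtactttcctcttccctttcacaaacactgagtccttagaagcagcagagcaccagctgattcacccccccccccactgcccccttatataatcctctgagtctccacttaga
Irgm1: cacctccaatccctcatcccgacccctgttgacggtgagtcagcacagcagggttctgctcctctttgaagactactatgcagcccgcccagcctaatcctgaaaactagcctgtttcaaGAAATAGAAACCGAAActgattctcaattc

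Shorter stretches of 30 bases show the same element in an oligoadenylate synthetase (Oas3, chr5:120777715-120777744), a radical SAM antiviral enzyme (Rsad2, chr12:26456553-26456582), tetherin (Bst2, chr8:71537580-71537609), a guanylate-binding protein (Gbp3, chr3:142559992-142560021) and a pair of RNA sensors (Ifih1, chr2:62646206-62646235, and Ddx58, chr4:40239804-40239833). Gbp3 is on the plus strand and the other 5 on the minus strand, and capitals again mark the element.
Oas3: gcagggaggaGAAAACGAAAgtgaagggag
Rsad2: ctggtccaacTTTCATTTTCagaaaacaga
Bst2: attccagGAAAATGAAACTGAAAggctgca
Gbp3: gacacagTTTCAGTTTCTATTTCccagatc
Ifih1: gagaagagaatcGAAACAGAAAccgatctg
Ddx58: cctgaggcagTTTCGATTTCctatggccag

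Tap1 and Psmb9 are transcribed away from each other, and 225 bases separate their starts, so their windows overlap by 275 bases and neither is an independent entry. The stretch between them, chr17:34187331-34187555 on the strand of Tap1, held no match to the element. It is shown because both genes were higher in every RBPJdel array than in any control array.
Tap1: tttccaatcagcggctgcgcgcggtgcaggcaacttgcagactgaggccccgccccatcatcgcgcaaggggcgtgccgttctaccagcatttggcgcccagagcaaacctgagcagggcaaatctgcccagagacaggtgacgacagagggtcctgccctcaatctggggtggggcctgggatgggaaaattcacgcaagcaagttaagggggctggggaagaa

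Most members gave a bright signal: 36 of 38 had a mean intensity above the median of all genes and 13 were above the 90th percentile, although intensities of different probe sets do not rank transcript amounts. The spread between arrays of a group, pooled over the 4 groups on the log2 scale, ran from 0.10 for Ddx58 to 0.56 for Ifitm3, with a median of 0.19. It was under 0.15 for 10 members. The 7 members above 0.3 were Eif2ak2, Oas2, Ifit3, Ifit1, Oasl2, Lgals3bp and Ifitm3, so a change in these had to be larger to pass. RBPJdel held the highest of the 4 group means for 23 members and N1c_RBPJdel the lowest for 17, as a description without a test. Single arrays also stood out: control 5 was the highest control array for 17 of 38 members, among them Samd9l at 1622, Ifit1 at 867, Ifit3 at 672 and Oas2 at 323.

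**Figure D1:**
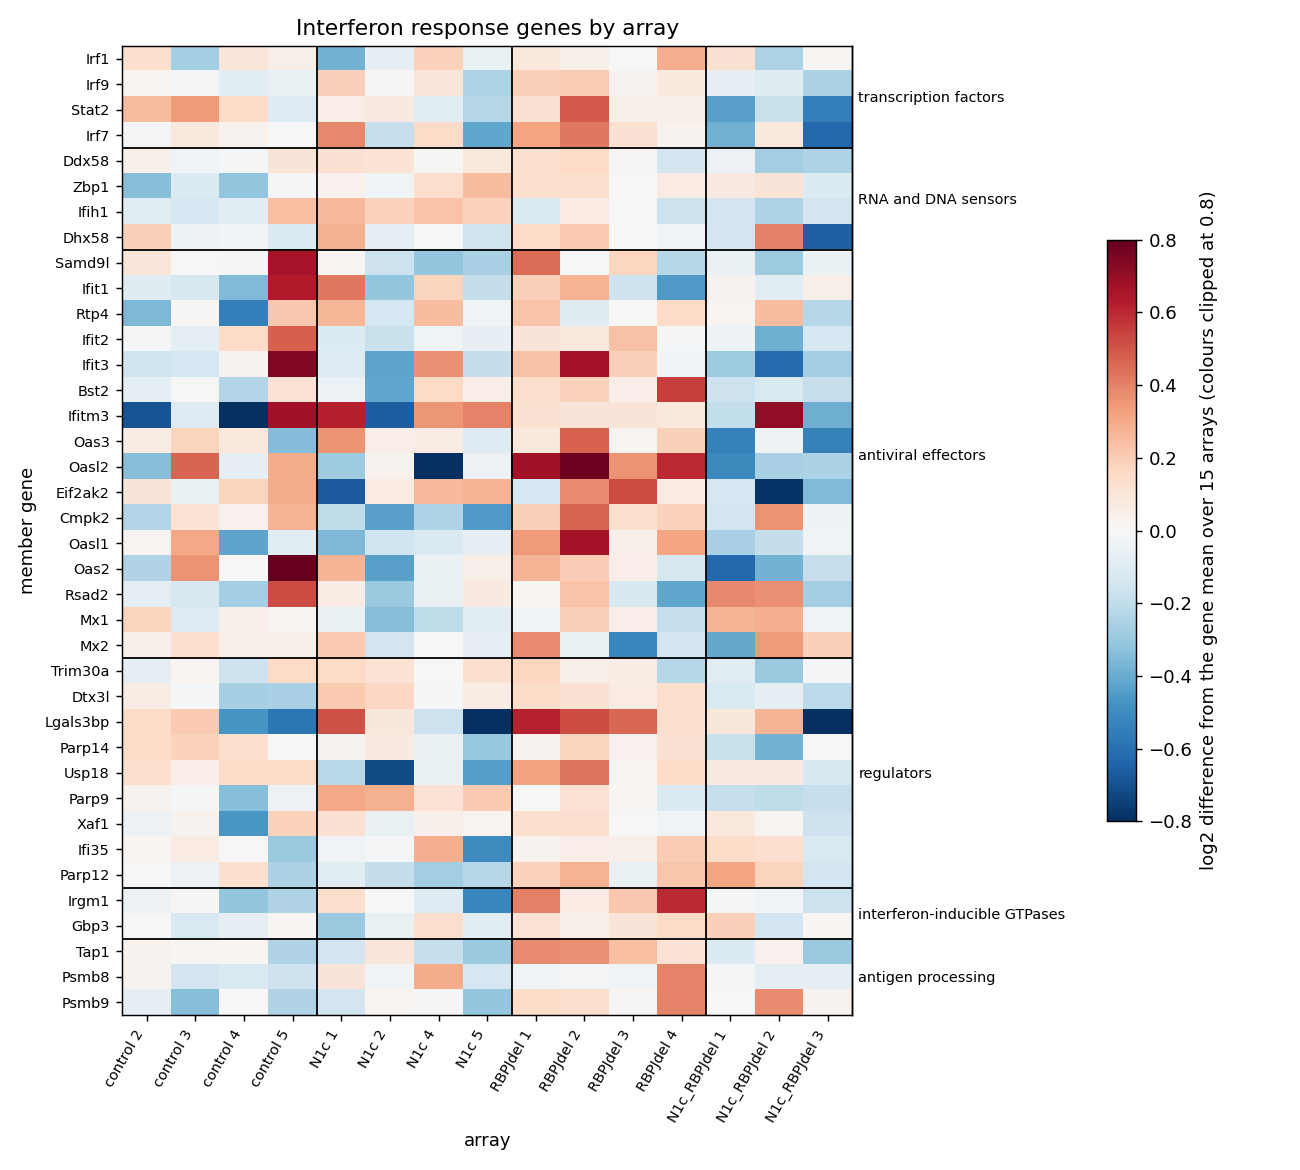
Each cell is the log2 difference of a member (rows, by role) from its mean over the 15 arrays (columns, by group), red above and blue below, with colours clipped at 0.8. RBPJdel arrays are mostly red, and each N1c_RBPJdel array is mostly blue for transcription factors. Control 5 carries the highest Samd9l, Ifit1, Ifit3 and Oas2 values of its group.

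The median over the members of each array's log2 difference from the gene means was 0.15, 0.18, 0.04 and 0.08 in RBPJdel 1 to 4, and between -0.02 and 0.03 in control. N1c arrays lay between -0.08 and 0.05, and N1c_RBPJdel 1 to 3 were at -0.08, -0.08 and -0.17. Every RBPJdel array was thus above every control array, and every N1c_RBPJdel array below every control array, with a pooled SD between arrays of a group of 0.05. In N1c_RBPJdel against control the members' median change was -0.09, and that of the brighter genes, those above the median intensity, was -0.1. Quantile normalization turned the members' median to 0.03 there, so the lower N1c_RBPJdel arrays give no direction for the members as a group. Quantile normalization also moved the medians of the other comparisons with N1c_RBPJdel, as given with them.

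**Figure D2:**
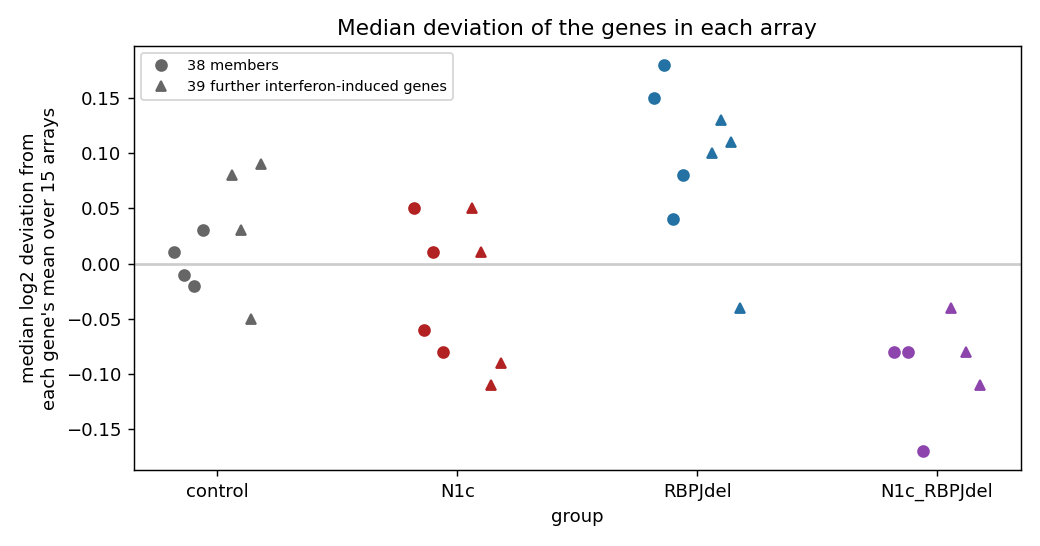
Median log2 deviation from each gene's mean over 15 arrays (vertical axis) for the 38 members (circles) and 39 further interferon-induced genes (triangles), 1 symbol per array in each group. RBPJdel circles lie at 0.04 to 0.18 and N1c_RBPJdel circles at -0.17 to -0.08, while triangles of RBPJdel reach down to -0.04.

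N1c against control asks what activated Notch1 does to these genes in Treg. No member passed the test (limma, Benjamini-Hochberg adjusted p under 0.05 over all 19752 genes, as in every comparison here), where 1.65% of all genes did (0.937% higher and 0.714% lower). Changes were above 0 for 17 of 38 members, 47.8% of all genes and 45.7% of the brighter genes. Without adjustment 4 members were higher and 3 lower at p under 0.05, against 4.09% and 4.12% of all genes. The nearest to the threshold was Usp18, the enzyme that strips ISG15 from proteins and dampens the interferon receptor, at 683, 487, 768 and 588 in N1c and 877, 828, 892 and 882 in control. Every N1c array was below every control array, as in 2.83% of all genes, and the log2 difference was -0.48 ± 0.13 (SE, n = 4 and 4, adjusted p = 0.0719). N1c and control arrays of the same replicate number deviated together, as did some of unlike number. With the number as a block over all arrays Usp18 passed (-0.55, limma adjusted p = 0.0293). That fit called 1 member and 494 of 19752 genes, while a block in N1c and control alone called no member. Parp9 was the only member with every N1c array above every control array (background 2.9%). The median change of the 38 members was -0.02, that of all genes -0.01.

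RBPJdel against control asks what loss of RBPJ does without added Notch1 signal. No member passed the test (limma adjusted p), and neither did most genes: 22 of 19752, or 0.111%, were called, 0.0354% higher and 0.0759% lower. Yet 29 of 38 members had a change above 0, where 58.8% of all genes did but 48.6% of the brighter genes, those above the median intensity. The median change of the members was 0.14, of all genes 0.03 and of the brighter genes -0.01, and after quantile normalization the members' median was 0.17 with 32 of 38 above 0. Without adjustment 9 members were higher at p under 0.05 (background 2.63%) and 0 lower (4.11%). In 7 members, Irgm1, Psmb9, Tap1, Zbp1, Dtx3l, Irf9 and Gbp3, every RBPJdel array was above every control array (background 2.81%), and in none was every one below (3.08%). The 6 measured B cell markers also summed to more in every RBPJdel array (643 to 771) than in any control array (562 to 637), with 5 of 6 above 0, a median change of 0.04 and none past the test, and their part in the members' differences was not tested. These counts describe members chosen with earlier results known, and their adjusted p ran from 0.474 upward.

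N1c_RBPJdel against control gave 1 call among the members: Stat2 fell by 0.55 ± 0.14 on the log2 scale (SE, n = 3 and 4, limma adjusted p = 0.0214). Of all genes 8.9% were called, 3.77% higher and 5.12% lower, so 1 of 38 is a smaller share than the background. Every N1c_RBPJdel array was below every control array for Eif2ak2, Stat2, Ifit3, Samd9l, Parp14, Ddx58 and Ifih1 (background 9.57%) and above it for Psmb9 (9.11%). Changes were above 0 for 13 of 38 members, 53.7% of all genes and 34.6% of the brighter genes, and for 21 members after quantile normalization. All 7 housekeeping genes were below 0, with a median of -0.12 and 2 of them without overlap. The median change of the members was -0.09, close to -0.10 for the brighter genes and apart from 0.02 for all genes. It turned to 0.03 after quantile normalization and 0.05 after cyclic loess, so no direction is given for the members as a group here.

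N1c_RBPJdel against N1c, the effect of RBPJ loss in cells with activated Notch1, gave 2 calls, both lower: Parp9 (log2 change -0.42) and Ifih1 (-0.40). Of all genes 9.23% were called, 4.58% higher and 4.65% lower. Without adjustment 4 members were higher, Cmpk2, Usp18, Mx1 and Parp12, and 7 lower, against 14% and 12.4% of all genes. Groups did not overlap for 2 higher members, Mx1 and Cmpk2, and 5 lower ones (background 7.95% and 8.42%). Changes were above 0 for 15 of 38 members, 53.5% of all genes and 35% of the brighter genes, and for 22 members after quantile normalization. The median change was -0.08, beside -0.09 for the brighter genes, and 0.02 after quantile normalization. All 7 housekeeping genes were below 0, with a median of -0.14.

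N1c_RBPJdel against RBPJdel, the effect of activated Notch1 in cells without RBPJ, gave 1 call: Stat2 fell by 0.56 ± 0.14 (SE, n = 3 and 4, limma adjusted p = 0.0394), with 2.29% of all genes called, 1.32% higher and 0.967% lower. Changes were below 0 for 34 of 38 members and above 0 for 4, where 47.8% of all genes were above 0, and the median was -0.22, against -0.01 for all genes and -0.09 for the brighter genes. Of the brighter genes 33.5% were above 0, and all 7 housekeeping genes were below 0 with a median of -0.20, 4 of them without overlap. Every N1c_RBPJdel array was below every RBPJdel array for 14 members and above for 0 (background 8.45% and 7.38%), and 16 were lower at an unadjusted p under 0.05 (background 11.1%) with 0 higher (10.2%). The median was -0.12 after quantile normalization, with 11 members above 0, and -0.09 after cyclic loess. RBPJdel, high in the previous comparison with control, is the reference here, so these 2 comparisons share its 4 arrays.

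The interaction, the effect of N1c in RBPJ-deleted cells minus its effect in RBPJ-intact cells, called no member, where 0.84% of all genes were called (0.319% higher and 0.521% lower). Without adjustment 7 members were below and 1 above 0 at p under 0.05 (background 6.25% and 6.67%). Its median was -0.29 over the members, -0.01 over all genes, -0.08 over the brighter genes and -0.21 over the members after quantile normalization, and 30 of 38 members were below 0 and 8 above, where 48.7% of all genes and 35.9% of the brighter genes were above, and 14 members were above after quantile normalization. All 7 housekeeping genes were below 0 as well, with a median of -0.14. The lowest p of the members was that of Parp9, at -0.52 ± 0.14 (SE, limma adjusted p = 0.0993). The 95% intervals of the change lay within 1 log2 unit of 0 for 36 of 38 members in N1c against control, 35 in RBPJdel against control and 31 in the interaction, and their median distance from estimate to bound was 0.27, 0.27 and 0.40 on the log2 scale.

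**Figure D3:**
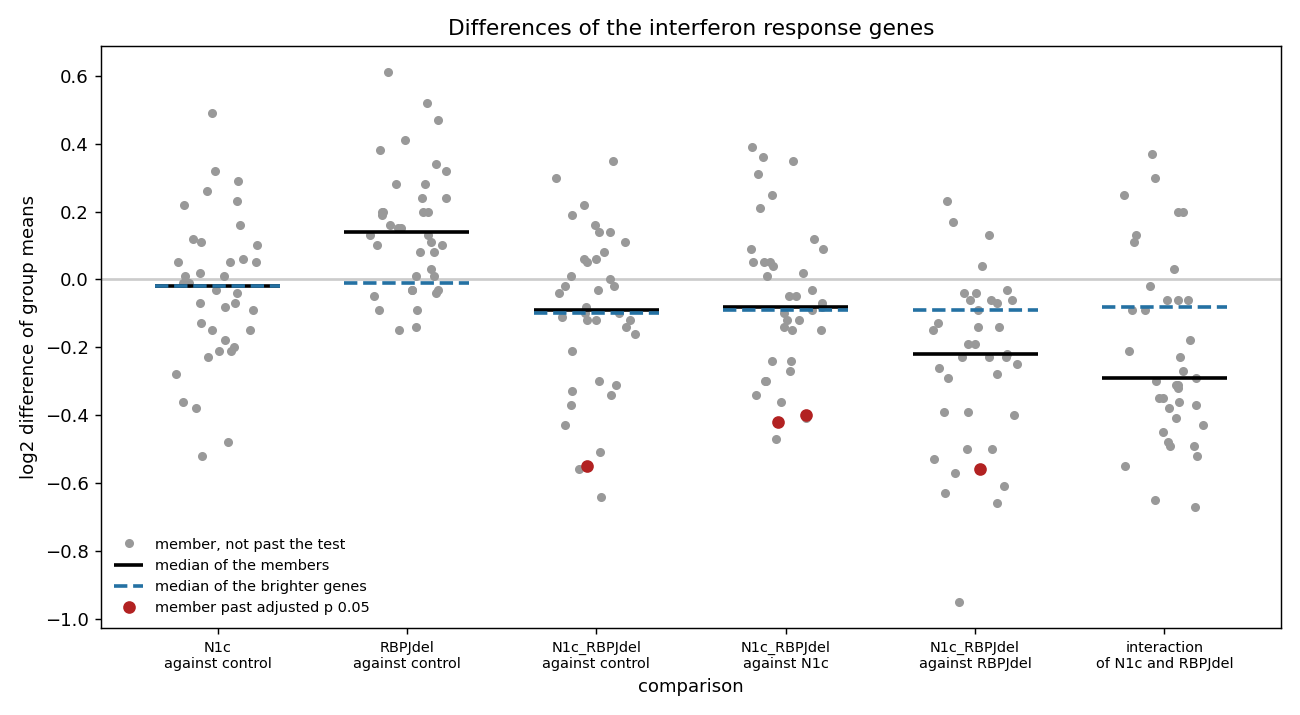
Log2 difference of group means (vertical axis) for each of 38 members (points) in the 6 comparisons, with the median of the members (black bar) and of the genes above the median intensity (dashed bar). Red points passed adjusted p 0.05: Stat2 against control and against RBPJdel, Parp9 and Ifih1 against N1c. The black bar is farthest from the dashed bar in the interaction (-0.29 and -0.08) and lies above it in RBPJdel against control (0.14 and -0.01).

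Among the transcription factors, Stat2, which works with IRF9 in the interferon complex, carried both calls in N1c_RBPJdel. Its intensities were 653, 693, 612 and 509 in control, 567, 575, 516 and 468 in N1c, 596, 768, 566 and 566 in RBPJdel, and 405, 484 and 375 in N1c_RBPJdel. The 3 arrays with both alterations lay below all 8 control and RBPJdel arrays and overlapped N1c, where the log2 difference was -0.34 (limma adjusted p = 0.123). The call against control was lost without N1c_RBPJdel 1 (limma adjusted p = 0.0762) or 3 (0.0706) or without control 2 (0.0599) or 3 (0.0693). With N1c_RBPJdel 1 and 3 both left out, only N1c_RBPJdel 2 remained in its group, and the change was -0.34. The call against RBPJdel was lost without N1c_RBPJdel 1 (limma adjusted p = 0.13) or 3 (0.0962) or without RBPJdel 1 (0.0794), 2 (0.108) or 3 (0.0732). With N1c_RBPJdel 2 as the only array of its group, the change against RBPJdel was -0.36. Cyclic loess (limma adjusted p = 0.0536 and 0.055), a fit of the 2 groups alone (0.0649 and 0.0934) and array range as a covariate (0.105 and 0.0678) ended both calls, and array weights the second (0.0539).

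Irf7, which drives later waves of interferon genes, was at 502, 537, 517 and 504 in control and at 630.4, 679, 551 and 516 in RBPJdel, and at 388, 536 and 327 in N1c_RBPJdel. N1c_RBPJdel 2 reached the RBPJdel range while the other two were below all control arrays. The log2 difference of -0.53 from RBPJdel did not pass (limma adjusted p = 0.103). Irf9, the DNA-binding subunit of the complex, was at 1331 to 1503 in RBPJdel and 1230.3 to 1319 in control, ranges that do not overlap, with a log2 change of 0.16 (limma adjusted p = 0.823). Irf1, a factor induced mainly by interferon gamma, had group means from 1379 in N1c to 1564 in RBPJdel, within the spread of its arrays.

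Among the sensors, Ifih1, which encodes MDA5, a receptor for long viral RNA, was at 558, 529.7, 545 and 529 in N1c and at 420.2, 392 and 421 in N1c_RBPJdel. The ranges do not overlap, and the fall was 0.40 ± 0.10 on the log2 scale (SE, limma adjusted p = 0.0225). Control arrays were at 437, 424, 437 and 549.7, so 3 of 4 were below every N1c array and control 5 lay among them, and N1c against control was 0.23 (limma adjusted p = 0.412). The call was lost without N1c 1 (limma adjusted p = 0.0611), N1c 2 (0.0506) or N1c_RBPJdel 1 (0.0541), and after quantile normalization the change was -0.28 (0.142). It was also lost with cyclic loess (-0.27, limma adjusted p = 0.154) and with the 2 groups alone (0.0847). With N1c_RBPJdel 2 as the only array of its group, the change was -0.46. Ddx58, which encodes the RNA receptor RIG-I, was at 905 to 1062 in N1c_RBPJdel and 1103 to 1195 in N1c, a log2 difference of -0.27 that did not pass (limma adjusted p = 0.0861). Zbp1, a sensor of Z-form nucleic acid, was at 746, 878, 759.8 and 941 in control, 971, 925, 1042 and 1122 in N1c and 1035, 1043, 944 and 989 in RBPJdel. Its arrays in RBPJdel were all above control, and 3 of 4 in N1c, with log2 differences of 0.28 and 0.29 (limma adjusted p = 0.589 and 0.236). Dhx58, which encodes the RNA receptor relative LGP2, had means of 222 to 259, with N1c_RBPJdel arrays spread from 155 to 322.

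Not 1 of the 16 antiviral effectors reached the threshold across the 6 comparisons. The widest differences were in Oasl2, an oligoadenylate synthetase-like protein, at 153, 268, 184 and 238 in control and at 309.6, 335, 249 and 294 in RBPJdel. It was at 159.7, 198, 71.8 and 188 in N1c and 136, 162 and 163 in N1c_RBPJdel, so that all RBPJdel arrays were above all 7 arrays with N1c. The log2 difference of N1c_RBPJdel from RBPJdel was -0.95 ± 0.27 (SE, limma adjusted p = 0.0667), and that of RBPJdel from control 0.52 ± 0.25 (0.739). Oas3, which makes the oligoadenylates that switch on RNase L, was at 227, 297, 217 and 244 in RBPJdel and at 147, 208 and 147 in N1c_RBPJdel. Its log2 difference was -0.57 ± 0.16 (SE, limma adjusted p = 0.064) and passed in 3 of 18 alternatives. Without N1c_RBPJdel 2, the highest of the 3, it was -0.73 (limma adjusted p = 0.0139). Without N1c_RBPJdel 1 or 3 it was -0.48 (limma adjusted p = 0.209) and -0.49 (0.147), and without both, which left only N1c_RBPJdel 2, -0.24. Oasl1, which represses translation of Irf7, was at 192 to 296 in RBPJdel and 156 to 182 in N1c_RBPJdel, a log2 difference of -0.50 (limma adjusted p = 0.0882). Oas2 had the lowest change of the members in N1c_RBPJdel against control, -0.64 (limma adjusted p = 0.0659), with control 5 at 323 and the other control arrays at 152, 230.3 and 179.

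The IFIT proteins bind viral RNA caps and stall translation. Ifit3 was at 360.4, 366, 411 and 672 in control, 375, 300.2, 519.8 and 353 in N1c, 473, 639, 459 and 396 in RBPJdel and 329, 262 and 334 in N1c_RBPJdel. The N1c_RBPJdel arrays were below all control and RBPJdel arrays, at log2 differences of -0.51 (limma adjusted p = 0.141) and -0.66 (0.101). Ifit1, printed above as its neighbour, had group means of 564, 567, 543 and 557 in control, N1c, RBPJdel and N1c_RBPJdel, less apart than the arrays within a group. Ifit2 ran from 315 to 403 in N1c_RBPJdel and 409.8 to 486 in RBPJdel (log2 difference -0.29, limma adjusted p = 0.192). Ifit1 and Ifit3 both carry 2 matches to the element in the stretches printed above.

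Eif2ak2, which encodes the RNA-dependent kinase PKR, was at 206, 184, 217 and 235 in control and 174, 111 and 150.0 in N1c_RBPJdel, without overlap. Its log2 difference was -0.56 ± 0.21 (SE, limma adjusted p = 0.104), with a wide spread within groups. Bst2, tetherin, which holds budding virus at the membrane, was at 320.4, 331, 302 and 427 in RBPJdel and 259, 267 and 256 in N1c_RBPJdel (log2 difference -0.39, limma adjusted p = 0.124). Cmpk2, a mitochondrial nucleotide kinase, was at 164, 140.0, 159 and 138 in N1c and 161, 205, 194 and 228 in control. All but control 2 were above every N1c array, and the log2 difference was -0.38 (limma adjusted p = 0.228). Cmpk2 lies beside Rsad2, whose means of 112 to 132 differed by less than its arrays did. Mx1 and Mx2, dynamin-like antiviral GTPases, were the dimmest members, with means of 80.2 to 102 and 60.5 to 67.3. Samd9l, a restriction factor of poxviruses, and Rtp4, an interferon-induced chaperone, did not pass in any comparison, and neither did Ifitm3, which blocks viral fusion and whose control arrays ran from 128 to 442.

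**Figure D4:**
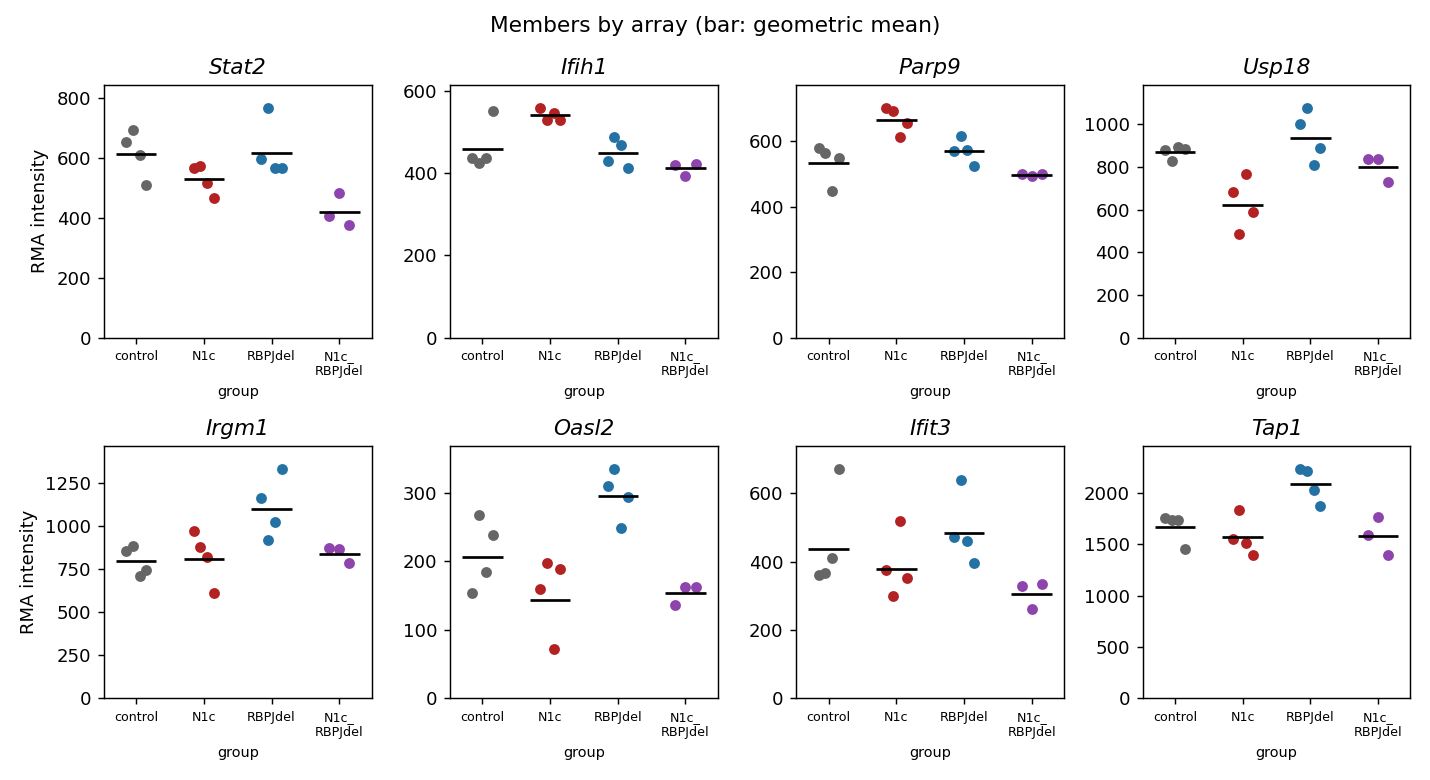
RMA intensity (vertical axes, from 0) of 8 members in each array of the 4 groups (points), with the geometric mean of the group (bar). N1c_RBPJdel has the lowest mean for Stat2, N1c the highest for Parp9 and the lowest for Usp18, and RBPJdel points lie above control for Irgm1 and Tap1.

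Among the regulators, Parp9 and Dtx3l, partners that modify histones and ubiquitin, both had their highest or second highest group mean in N1c. Parp9 was at 580.0, 564, 449 and 550.4 in control, 702, 693, 614 and 657 in N1c, 569, 616, 573 and 524 in RBPJdel and 499.9, 493 and 500.5 in N1c_RBPJdel. All N1c arrays were above all control arrays and above all N1c_RBPJdel arrays. The fall from N1c to N1c_RBPJdel was 0.42 ± 0.10 (SE, limma adjusted p = 0.0163), while N1c against control was 0.32 ± 0.09 (0.127). The call was lost without N1c 1 (limma adjusted p = 0.051) or N1c 2 (0.0509), and after quantile normalization the change was -0.30 (0.0803). Cyclic loess (limma adjusted p = 0.0822) and the 2 groups alone (0.0762) ended it too. With N1c_RBPJdel 2 as the only array of its group, the change was -0.43. Dtx3l, an E3 ligase, was at 1372 to 1602 in N1c and 1453 to 1533 in RBPJdel, and at 1199 to 1317 in N1c_RBPJdel, with the interaction at -0.48 ± 0.14 (SE, limma adjusted p = 0.122). Both Parp9 and Dtx3l were thus higher in N1c than in N1c_RBPJdel without overlap, and both were also higher in RBPJdel than in N1c_RBPJdel without overlap.

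Usp18, described with N1c above, was at 999, 1076, 808 and 887 in RBPJdel and 839, 838 and 729.8 in N1c_RBPJdel. The N1c mean of 623 was the lowest of its 4 group means, and N1c_RBPJdel against N1c was 0.36 (limma adjusted p = 0.101). Lgals3bp, a secreted galectin-binding glycoprotein, was at 1918, 1795, 1722 and 1366 in RBPJdel and 1384, 1449, 900.0 and 837 in control. The log2 difference was 0.61 ± 0.28 (SE, limma adjusted p = 0.726), for a gene whose N1c arrays ran from 653 to 1780.3. Parp14, a mono-ADP-ribosyltransferase, was at 785 to 1019 in N1c_RBPJdel, below the 1023 to 1158 of control (log2 difference -0.30, limma adjusted p = 0.092). Parp12, Trim30a, Ifi35 and Xaf1 did not pass in any of the 6 comparisons.

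Of the interferon-inducible GTPases, Irgm1, which acts on pathogen vacuoles and autophagy, gave the lowest p of the members in RBPJdel against control. It was at 1164, 921, 1026 and 1334 in RBPJdel and at 857, 887, 711 and 746 in control. Each RBPJdel array was above each control array, and the log2 difference was 0.47 ± 0.14 (SE, limma unadjusted p = 0.00362, adjusted p = 0.474). In N1c_RBPJdel it was at 871, 869.9 and 784, within the control range. Gbp3 was at 605 to 656 in RBPJdel and 538 to 593 in control (log2 difference 0.15, limma adjusted p = 0.837).

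Of the antigen processing genes, Tap1, a subunit of the peptide transporter for MHC class I, was at 2236, 2216, 2031 and 1868 in RBPJdel and at 1752, 1738, 1738 and 1453 in control. N1c arrays were at 1547, 1837, 1517 and 1399 and N1c_RBPJdel arrays at 1594, 1761 and 1399, so RBPJdel lay above all 11 other arrays. The log2 difference was 0.32 ± 0.11 from control (SE, limma adjusted p = 0.541) and -0.40 ± 0.12 for N1c_RBPJdel against RBPJdel (0.0733). Psmb9, an immunoproteasome subunit across the shared upstream stretch, was at 753, 747, 682 and 894 in RBPJdel and at 649, 536, 679 and 574 in control. Its groups did not overlap either, at 0.34 ± 0.12 (SE, limma adjusted p = 0.589). Unlike Tap1, it stayed at 680.0, 883 and 691 in N1c_RBPJdel, above all control arrays, with a log2 difference of -0.04 from RBPJdel. The difference of Psmb9 in N1c_RBPJdel from control was 0.30 and did not pass (limma adjusted p = 0.146). It passed in 4 of 18 alternatives, among them quantile normalization (0.43, limma adjusted p = 0.0379). Without N1c_RBPJdel 2 it was 0.18 (limma adjusted p = 0.372). Psmb8, another immunoproteasome subunit, rested on RBPJdel 4 at 1479.9, while RBPJdel 1 to 3 were at 1102 to 1113.

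The genes around the members were read from lists. Of all genes 0.937% rose and 0.714% fell in N1c against control, and 4.58% rose and 4.65% fell in N1c_RBPJdel against N1c. Among 10 receptors, kinases and STATs, 1 fell and 0 rose in N1c against control: Ifngr2, the signalling chain of the interferon gamma receptor, at 932, 742, 956 and 668 against 1245, 1272, 1329.9 and 1120.0 in control. It fell by 0.60 ± 0.12 on the log2 scale (SE, limma adjusted p = 0.00978), without overlap, and passed in each of 19 alternatives. Ifngr1, the ligand-binding chain, was at 2195, 1800.3, 1602 and 1659.9 in N1c and at 3429.9, 2465 and 2786 in N1c_RBPJdel, where it was higher by 0.67 ± 0.13 (SE, limma adjusted p = 0.0052). Il10rb, shared by the receptors for interleukin 10 and interferon lambda, rose in the same comparison by 0.52 (limma adjusted p = 0.021). Of 18 alternatives Ifngr1 passed in 17 and Il10rb in 15. Ifnar1 and Ifnar2, the type I receptor chains, did not pass in any comparison, and neither did Jak1 and Tyk2. None of 16 interferon ligand genes passed in any comparison.

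Of 14 genes that induce interferon, Irf5 fell by 0.55 in N1c against control (limma adjusted p = 0.0191), the only call of the list there, which passed in 13 of 19 alternatives. In N1c_RBPJdel against control Irf8 and Irf5 rose (log2 change 0.84 and 0.43, limma adjusted p = 0.00758 and 0.0425). The kinase Tbk1 and its upstream ligase Traf6 fell there (-0.40 and -0.49), where 3.77% of all genes rose and 5.12% fell. Of 18 alternatives Irf8 passed in 17, Irf5 in 10, Tbk1 in 9 (limma adjusted p up to 0.177) and Traf6 in 8 (up to 0.338). Irf5, which acts below Toll-like receptors, was at 155, 115, 142 and 159 in N1c and at 276, 327 and 243 in N1c_RBPJdel, against 217, 209.7, 221 and 184 in control. N1c was below and N1c_RBPJdel above every control array. Irf5 rose by 0.98 in N1c_RBPJdel against N1c and passed in each of 18 alternatives. Traf6 fell by 0.42 there and passed in 8 of 18. These were the calls of the list in that comparison, where 4.58% of all genes rose and 4.65% fell. Irf5 and Irf8 are also abundant in B cells and macrophages. B cell markers rose for 2 of 6 in N1c_RBPJdel against control. The 6 macrophage and monocyte markers summed to 355 to 515 in N1c_RBPJdel and 353 to 558 in control, and none passed the test. Of these 6, 5 were above 0 with a median change of 0.20, and 3 were higher at an unadjusted p under 0.05 (background 13.1%). In N1c_RBPJdel against N1c 3 of the 6 were above 0 and 3 below, and 1 passed as higher. The part of these cells in the rises of Irf5 and Irf8 was not tested. Among 8 inhibitors of the signal, 0 rose and 2 fell in N1c_RBPJdel against N1c, where 4.58% of all genes rose and 4.65% fell. Socs3, which blocks JAK kinases and was read from the brighter of 2 features, fell by 1.21 ± 0.23 (SE, limma adjusted p = 0.00351). It passed in 17 of 18 alternatives. The phosphatase gene Ptpn11 fell by 0.49 (limma adjusted p = 0.0215) and passed in 12 of 18. In N1c_RBPJdel against control Ptpn11 fell by 0.53 (limma adjusted p = 0.0178) and passed in 11 of 18. It was the only call of the 8 inhibitors there, where 3.77% of all genes rose and 5.12% fell, so Socs3 did not pass against control. In N1c against control none of the 8 passed, with changes from -0.48 to 0.79.

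Among 39 further interferon-induced genes, 1 rose and 0 fell in N1c against control, where 0.937% of all genes rose and 0.714% fell. Epsti1, a gene of epithelial-stromal interaction, was the 1 that rose, at 1116, 1237, 1420.4 and 1084 against 932, 829, 794 and 868 (log2 change 0.50 ± 0.10, SE, limma adjusted p = 0.0105). It fell again by 0.39 in N1c_RBPJdel against N1c (limma adjusted p = 0.0301). The rise passed in 17 of 19 alternatives and the fall in 9 of 18 (limma adjusted p up to 0.176, change -0.44 to -0.25). In N1c_RBPJdel against control 4 of the 39 fell, Slfn5, Rnf213, Trim25 and Ddx60 (log2 change -0.72, -0.74, -0.50 and -0.49), and 1 rose, Ifitm2 (0.65). Of all genes 5.12% fell and 3.77% rose in this comparison. Slfn5 passed in 18 of 18 alternatives, Rnf213 in 17, Trim25 in 11, Ddx60 in 9 (limma adjusted p up to 0.12) and Ifitm2 in 7 (up to 0.136). Rnf213, a large ubiquitin ligase, was at 903, 846 and 916 in N1c_RBPJdel, below the 1250.1 to 1782 of control and the 1204 to 1839 of RBPJdel, and fell against RBPJdel by 0.82 ± 0.16 (SE, limma adjusted p = 0.0158, passing in 14 of 18 alternatives). In RBPJdel against control none of the 39 passed, 27 were above 0 and their median was 0.08. There 58.8% of all genes and 48.6% of the brighter genes were above 0. In N1c_RBPJdel against RBPJdel 32 of the 39 were below 0, with a median of -0.14, where all 7 housekeeping genes were below 0 as well, with no call. Of all genes 47.8% were above 0 there, and of the brighter genes 33.5%. Of 11 genes of MHC class I and the immunoproteasome, Nlrc5, the activator of MHC class I genes, fell in that comparison by 0.48 (limma adjusted p = 0.043). Calls among all genes there were 0.967% lower and 1.32% higher, and none of the 11 passed in the other 5 comparisons. Nlrc5 had 19 features, and the value is that of the brightest alone. Rnf213 had 2 features and Ifitm2 3, read in the same way. The Nlrc5 call was kept in 7 of 18 alternatives, with an adjusted p of up to 0.501 and a change of -0.60 to -0.19.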

How the data were processed

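RNA of sorted splenic Treg was read on 15 Affymetrix arrays. The deposited values are intensities that the authors obtained by RMA, and the submitters' processing notes also name Affymetrix Power Tools. The sources used here do not give versions, annotation release or build. There were 24922 features with intensities from 5.61 to 18029.7 on a linear scale, which were converted to log2 and not normalized further. Of the features, 21425 named 1 gene, 1399 several and 2098 none. The Entrez ID of 21347 matched the mouse table (GRCm38.p6), and the brightest feature was kept for 921 genes with more than 1, which left 19752 genes.

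Means per group were fitted to all 15 arrays with limma 3.58.1 (lmFit and eBayes, R 4.3.3, 11 residual degrees of freedom), two-sided, with Benjamini-Hochberg adjustment over all genes and a threshold of 0.05. Members and lists were chosen with earlier results of these data known. The text names every member, Foxp3, Rbpj and Notch1 as checks, genes of the receptor list, and up to 4 genes per further list and comparison past the threshold by smallest p. Ifitm2, beyond the 4, was named after its values were seen. Isg15 was not analysed here. The number of arrays limits the precision. On simulated data for N1c against control with 19752 genes, 60 of 100 genes changed by 0.5 on the log2 scale and 95 of 100 changed by 1 were recovered. Replicate numbers come from the sample titles. Same-numbered N1c and control arrays deviated from their group means with correlations of 0.417, 0.341 and 0.497, above the limit of 0.1 for a pairing. N1c and control arrays of unlike number ran from -0.426 to 0.371, so some correlated about as much. RBPJdel 4 reached 0.417 with control 4 and 0.457 with N1c 4. These values do not settle whether a shared number marks a pair. RBPJdel and control did not meet it (lowest 0.0711). Alternatives were quantile and cyclic loess normalization, an offset of 50, array weights, brighter genes only, the 2 groups alone, a replicate block and leaving out each array. The mean of the features of a gene, and eBayes with its trend and robust options, were 2 more. A gene with 1 feature keeps its values under that mean, so this alternative is close to the main fit for most members. Array range as a covariate, leaving out N1c_RBPJdel 1 and 3 together, and the block in N1c and control alone were added after the data were seen. They are counted among the alternatives, although leaving out N1c_RBPJdel 1 and 3 left only N1c_RBPJdel 2 in its group. Promoter windows come from RefSeq, and those of 9 members are not used here.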

Additional observations from a re-analysis of the deposited data

Results flagged for a closer look

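Of 114 checks of 38 members in the 3 groups of 4 arrays, 7 found an array whose gap to its nearest neighbour took most of the group's range, where chance alone flags about 1 in 20. The values are the gap as a share of the range. In control, array 5 was high for Ifih1 (549.7, share 0.879) and Samd9l (1622, 0.833) and low for Tap1 (1453, 0.957), and array 3 was high for Mx2 (70.3, 0.967). In RBPJdel, array 4 was high for Psmb8 (1479.9, 0.964) and Ifi35 (463, 0.86), and array 2 was high for Stat2 (768, 0.831). Of the 7, 3 were in control 5.

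The interaction of N1c and RBPJdel for Irf5 was 0.77 on the log2 scale (limma adjusted p = 0.0461, range over the alternatives 0.0142 to 0.103). Irf5 was lower by 0.55 in N1c against control. The interaction includes N1c_RBPJdel, the only group sorted on a FACSAria, so sorter and that genotype cannot be told apart. B cell markers rose there for 2 of 6 against control, where 3.77% of all genes rose, and their part was not tested. The interaction passed in 13 of 25 alternatives. Its call was lost, among others, without any of N1c 1, 2 or 4, or of control 2, 3 or 4.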

How the results depend on the processing

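No result turned its sign past the threshold. N1c_RBPJdel had 1, 2 and 1 members called against control, N1c and RBPJdel, where 1757, 1823 and 452 of 19752 genes were called. The other 3 comparisons had 0. Settings that moved these member counts by over 1.5 times follow, with calls among all 19752 genes in brackets where given. Quantile normalization called 2 members against control (1141) and 2 against RBPJdel (435), and cyclic loess 0 against RBPJdel (368). Brighter genes only gave 1 in N1c against control (328 of 9876). Array weights gave 3 in N1c against control (733), 2 in N1c_RBPJdel against control (2237) and 0 against RBPJdel (369). With the 2 groups alone, N1c_RBPJdel had 0 calls against control (406) and 0 against N1c (561). Array range as a covariate gave 3 against control (861). Leaving out N1c_RBPJdel 1 and 3 together left only N1c_RBPJdel 2 in its group, with no spread to measure there, so no calls of that fit are given. A replicate block over all arrays called 1 in N1c against control (494) and 1 in the interaction (632). In N1c_RBPJdel against control, N1c and RBPJdel the block called 5, 4 and 7 (3767, 3699 and 2107). Only N1c and control met the limit of the pairing check.

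Leaving out 1 array at a time, calls ranged from 0 to 1 in N1c against control (1 without N1c 4), 0 to 2, 0 to 4 and 0 to 4 in N1c_RBPJdel against control, N1c and RBPJdel, and 0 to 1 in the interaction (1 without N1c_RBPJdel 2). The highest counts against control, N1c and RBPJdel came without N1c_RBPJdel 2, 3 and 2 in that order. Of all 19752 genes, 3088, 1611 and 1890 were called in these 3 fits. In N1c against control 267 genes were called without N1c 4, and in the interaction 478 without N1c_RBPJdel 2.

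The members' median change moved under quantile normalization to 0.03, 0.02 and -0.12 in N1c_RBPJdel against control, N1c and RBPJdel and to -0.21 in the interaction, and under cyclic loess to 0.05, 0.04, -0.09 and -0.17. The replicate block gave -0.08 in N1c against control, and leaving out N1c_RBPJdel 1 and 3 gave -0.22 in the interaction. The cause was not tested. Other alternatives moved the median by less than the pooled SD of 0.05, apart from leaving out N1c_RBPJdel 3 (-0.02 against N1c) and control 4 (-0.23 in the interaction). Leaving out 1 array gave -0.12 to -0.02 against N1c and -0.32 to -0.23 in the interaction. Groups of 3 or 4 arrays limit the precision.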
